A study of Mus musculus with 41 samples.

Results

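The data described here are the H3K4me3 and H3K27me3 CUT&Tag profiles of mouse E14 embryonic stem cells kept in 2i medium (mESC-2i), compared at gene promoters. CUT&Tag directs a transposase with an antibody to a histone modification, so that DNA beside that modification is cut, tagged and sequenced. mESC-2i grew in N2B27 with the MEK inhibitor PD0325901, the GSK3 inhibitor CHIR99021 and LIF, received no other treatment, and were processed as whole cells, whereas the differentiated cell types of the series were processed as nuclei. The 2 marks were profiled in 4 of the 41 samples of the series, as 2 biological replicates per mark, and each mark has 1 peak list called on its combined replicates. A promoter was the sequence within 2000 bp of any annotated transcription start site (TSS), and a gene carried a mark where a peak overlapped at least 1 of its promoters by 1 bp. All 53843 annotated genes on chromosomes 1 to 19 and X fell into 4 classes by this rule: bivalent (both marks), H3K4me3-only, H3K27me3-only and neither. The peak lists held 19362 H3K4me3 and 24613 H3K27me3 regions on these chromosomes, out of 545474 regions in the 24 lists of the series. Since the replicates were combined before peaks were called, no comparison below has a replicate error or a test, and the 95% Wilson intervals beside shares cover counting error only. The marks came from separate libraries of many cells, so both marks on the same nucleosome, on different alleles or in different cells cannot be told apart.

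H3K4me3 is placed at active and poised promoters by the SET1 and MLL family of methyltransferases and is typical of CpG islands, stretches of DNA rich in unmethylated CpG. H3K27me3 is placed by Polycomb repressive complex 2 (PRC2) and accompanies silent developmental genes. Promoters with both marks, called bivalent, were first described in embryonic stem cells at regulators of later lineages, and 2i medium holds such cells in a naive state.

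The upstream sequences of 6 promoters are shown as examples of the CpG content found in the classes, which overlap in it. Each runs 5′ to 3′ over the 250 bases before the RefSeq TSS (build GRCm38.p6), and capitals mark CpG dinucleotides. Wnt6 and Pax6 were bivalent, Suz12 was H3K4me3-only, Krt5 was H3K27me3-only, and Olfr110 and Dazl carried neither mark.
Wnt6, chr1:74771642-74771891, plus strand: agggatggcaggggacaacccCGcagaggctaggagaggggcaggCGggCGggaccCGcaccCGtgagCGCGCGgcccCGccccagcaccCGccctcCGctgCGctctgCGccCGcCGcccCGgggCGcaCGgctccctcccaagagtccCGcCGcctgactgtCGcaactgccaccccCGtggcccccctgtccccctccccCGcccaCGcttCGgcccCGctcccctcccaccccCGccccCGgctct
Pax6, chr2:105668646-105668895, plus strand: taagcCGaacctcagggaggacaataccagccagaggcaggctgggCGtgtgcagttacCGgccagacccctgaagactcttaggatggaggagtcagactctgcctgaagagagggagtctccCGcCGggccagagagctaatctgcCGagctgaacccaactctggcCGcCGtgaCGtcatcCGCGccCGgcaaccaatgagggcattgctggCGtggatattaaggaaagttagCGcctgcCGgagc
Suz12, chr11:79992856-79993105, plus strand: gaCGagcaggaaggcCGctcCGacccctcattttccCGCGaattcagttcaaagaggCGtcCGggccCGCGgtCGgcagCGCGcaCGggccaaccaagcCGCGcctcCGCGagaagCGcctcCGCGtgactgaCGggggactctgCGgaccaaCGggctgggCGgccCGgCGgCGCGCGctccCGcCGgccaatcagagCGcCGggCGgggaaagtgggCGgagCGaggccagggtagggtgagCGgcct
Krt5, chr15:101712906-101713155, minus strand: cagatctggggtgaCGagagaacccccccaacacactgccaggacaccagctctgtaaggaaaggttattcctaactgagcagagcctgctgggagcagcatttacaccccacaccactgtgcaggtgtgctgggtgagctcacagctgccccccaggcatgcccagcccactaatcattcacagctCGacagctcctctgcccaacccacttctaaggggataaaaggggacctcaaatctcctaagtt
Olfr110, chr17:37492218-37492467, plus strand: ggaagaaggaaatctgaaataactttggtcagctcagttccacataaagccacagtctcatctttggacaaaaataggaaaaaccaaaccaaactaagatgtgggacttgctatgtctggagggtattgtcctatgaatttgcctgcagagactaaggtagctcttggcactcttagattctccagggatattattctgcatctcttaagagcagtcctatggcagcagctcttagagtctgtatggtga
Dazl, chr17:50293621-50293870, minus strand: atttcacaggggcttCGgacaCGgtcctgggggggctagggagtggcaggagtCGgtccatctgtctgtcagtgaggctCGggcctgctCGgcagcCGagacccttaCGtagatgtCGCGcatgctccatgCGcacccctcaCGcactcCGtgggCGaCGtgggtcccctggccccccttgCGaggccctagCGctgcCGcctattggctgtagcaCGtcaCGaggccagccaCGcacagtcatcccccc
The PRC2 subunit gene Suz12 held 37 CpG in these 250 bases, the ligand gene Wnt6 held 28, and the eye and brain regulator Pax6 held 15. The basal keratin gene Krt5 held 2 and the olfactory receptor gene Olfr110 held 0. The germ cell gene Dazl held 20 CpG and yet carried neither mark. Other promoters of the same length lay closer together, with 7 CpG at Hoxb1 and 8 at Neurog2 (both bivalent), 8 at Pou5f1 (H3K4me3-only), and 6 at Myh2 and 5 at Krt14 (both H3K27me3-only).

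H3K4me3 was called at a promoter of 33.2% of all genes and of 61.8% of protein-coding genes. H3K27me3 was called at 16.4% of all genes and at 22.5% of protein-coding genes. Over all genes, 7.54% were bivalent (4058 genes), 25.6% were H3K4me3-only, 8.91% were H3K27me3-only and 57.9% carried neither mark. Shorter peak lists gave other shares. With the H3K27me3 list reduced to its 3122 peaks of largest total signal, 3.27% were bivalent and 1.95% were H3K27me3-only, so the order of these classes turned round, and with the larger 50% of both lists 3.96% were bivalent and 7.79% were H3K27me3-only. Over the 21755 protein-coding genes, 14.2% were bivalent (3088 genes, interval 13.7% to 14.7%), 47.6% were H3K4me3-only (10352 genes), 8.32% were H3K27me3-only (1811 genes) and 29.9% carried neither mark (6504 genes). H3K27me3 lay at 23.0% of the protein-coding genes with H3K4me3 (interval 22.3% to 23.7%) and at 21.8% of those without it (interval 20.9% to 22.7%). These separate intervals overlap, which does not make the shares equal. Over all genes, non-coding ones included, the shares lay farther apart, at 22.7% (interval 22.1% to 23.4%) and 13.3% (interval 13.0% to 13.7%). Seen from the other mark, 63.0% of the protein-coding genes with H3K27me3 also carried H3K4me3.

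The peaks of both marks overlapped at most bivalent genes. At 86.3% of the 3088 bivalent protein-coding genes (interval 85.1% to 87.5%) the marks shared at least 1 bp inside a promoter, and at 91.6% both lay within the promoter of the same TSS. Among the 14354 H3K4me3 peaks at promoters, 14.6% lay wholly inside an H3K27me3 peak and 6.19% overlapped an H3K27me3 peak in part. The reverse nesting was rare, since 1.16% of the 8484 promoter H3K27me3 peaks lay wholly inside an H3K4me3 peak. In sum over the genome, 9.43 Mb carried both marks, which was 18.9% of the H3K4me3 bases and 6.51% of the H3K27me3 bases.

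**Figure D1:**
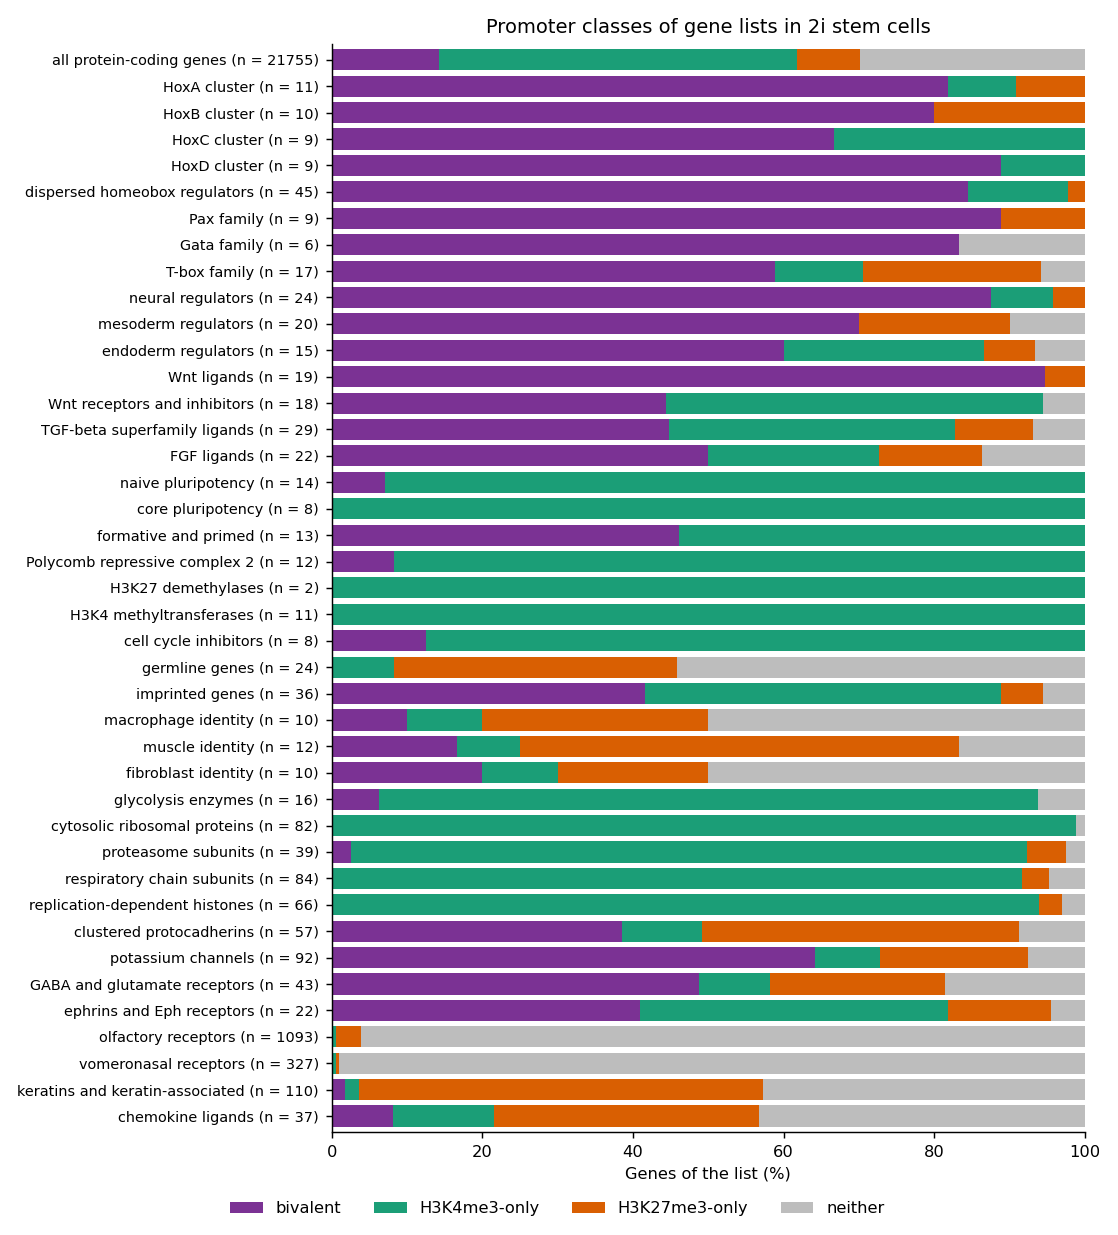
Share of each gene list (x axis, percent of its genes) in the 4 promoter classes in mESC-2i, with all protein-coding genes at the top and the number of genes in parentheses. Lists of developmental regulators and Wnt ligands are mostly bivalent, pluripotency and housekeeping lists are mostly H3K4me3-only, and muscle, keratin, clustered protocadherin and germline lists hold the largest H3K27me3-only shares.

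Developmental transcription factors were mostly bivalent. The Hox genes, which set position along the body axis from 4 clusters, were bivalent in 31 of 39 cases (79.5%, interval 64.5% to 89.2%) against 14.2% of protein-coding genes, and none lacked both marks. Hox neighbours often shared an H3K27me3 peak, with 20 such peaks at the 31 bivalent and 3 H3K27me3-only genes. H3K4me3 peaks were shared less, with 34 of them at the 31 bivalent and 5 H3K4me3-only genes. In the HoxB cluster a single H3K27me3 peak of 47836 bp, chr11:96271715-96319550, reached the promoters of Hoxb4, Hoxb5, Hoxb6, Hoxb7, Hoxb8 and Hoxb9. Within it Hoxb8 had no H3K4me3 peak, whereas Hoxb4 had 1 of 2856 bp and Hoxb9 1 of 2760 bp. Hoxb3, under an H3K27me3 peak of 33055 bp that it shared with bivalent Hoxb2, was likewise H3K27me3-only, and Hoxb1 and the isolated Hoxb13 were bivalent.

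The HoxA cluster held 9 bivalent genes (Hoxa2, Hoxa3, Hoxa5, Hoxa6, Hoxa7, Hoxa9, Hoxa10, Hoxa11 and Hoxa13). Within the same cluster Hoxa4 carried H3K27me3 only, in a peak of 8202 bp. In the HoxD cluster Hoxd1, Hoxd3, Hoxd4, Hoxd9, Hoxd10, Hoxd11, Hoxd12 and Hoxd13 were bivalent and Hoxd8 was H3K4me3-only. The HoxC cluster had the fewest bivalent genes, with Hoxc5, Hoxc6, Hoxc8, Hoxc9, Hoxc10 and Hoxc11 bivalent and Hoxc4, Hoxc12 and Hoxc13 H3K4me3-only. The H3K4me3 peak at Hoxc12 spanned 11698 bp and was 181st by total signal (coverage summed over the peak) of the 19362, while that at Hoxb1 spanned 2106 bp and ranked 17845.

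Of 45 homeobox regulators outside the Hox clusters, 38 were bivalent (84.4%, against 14.2% of protein-coding genes) and 6 were H3K4me3-only, namely Cdx1, Cdx4, Gbx2, Irx2, Msx2 and Nkx2-4. The cardiac factor gene Nkx2-6 was the single H3K27me3-only member. Lhx5, a regulator of forebrain development, lay under an H3K27me3 peak of 52831 bp, and Lhx2 under one of 33079 bp. Every Pax gene carried H3K27me3, and 8 of 9 were bivalent. Pax7, needed for muscle stem cells, had a narrow H3K4me3 peak of 1421 bp within an H3K27me3 peak of 43325 bp. Pax6 had an H3K4me3 peak of 12746 bp and an H3K27me3 peak of 29145 bp, and bivalent Pax1, Pax2, Pax3, Pax5, Pax8 and Pax9 lay between these extremes in H3K4me3 width. Pax4, a pancreatic islet factor gene without a CpG island at its promoters, carried H3K27me3 only. Gata2, Gata3, Gata4, Gata5 and Gata6 were bivalent, whereas Gata1, the erythroid member on the X chromosome, carried neither mark.

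Lineage lists were bivalent to different degrees, from 58.8% (T-box) to 87.5% (neural), against 14.2% of protein-coding genes, of which 8.32% were H3K27me3-only and 29.9% unmarked. Of 24 neural regulators, 21 were bivalent, among them Neurog2, Olig2 and Sox1. Nes and Zic2 were H3K4me3-only, and the sensory neuron factor Pou4f1 was H3K27me3-only. At Sox1, a marker of neural progenitors, the marks did not share a base, although an H3K4me3 peak of 3392 bp and an H3K27me3 peak of 14927 bp both reached its promoter. Of 20 mesoderm regulators, 14 were bivalent, 4 were H3K27me3-only (Meox1, Mesp2, Myf5 and Myf6) and 2 carried neither mark (Msgn1 and Myog). The myogenic factors that begin the muscle programme thus differed, with Myod1 bivalent (H3K27me3 peak of 5034 bp), Myf5 H3K27me3-only (5979 bp) and Myog, which acts later, unmarked. Among 15 endoderm regulators, Foxa1, Foxa2, Gsc, Onecut1, Pdx1, Prox1, Sox7 and Sox17 were bivalent. Foxa3, Hesx1 and Hhex were H3K4me3-only, the liver factor gene Hnf4a was H3K27me3-only (15688 bp), and Cer1 carried neither mark. Of 17 T-box genes, 10 were bivalent, including T (brachyury) and Eomes, which act in gastrulation. Tbx5, Tbx10, Tbx19 and Tbx22 were H3K27me3-only, Tbx6 carried neither mark, and Mga and the naive factor gene Tbx3 were H3K4me3-only.

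Ligand genes and their receptors and inhibitors differed in class. Over protein-coding genes 14.2% were bivalent, 47.6% H3K4me3-only, 8.32% H3K27me3-only and 29.9% unmarked, as the base for these counts. All 19 Wnt ligand genes carried H3K27me3, and 18 of them (94.7%, interval 75.4% to 99.1%) were bivalent. Wnt8a, without a CpG island, was H3K27me3-only. Their H3K27me3 peaks ranged from 4608 bp at Wnt16 to 51699 bp at Wnt3. By contrast, 8 of 18 Wnt receptor and inhibitor genes were bivalent (Dkk2, Fzd1, Fzd2, Fzd3, Fzd4, Fzd7, Sfrp2 and Sfrp5), 9 were H3K4me3-only, and Dkk4 carried neither mark. Of 29 TGF-beta superfamily ligands 13 were bivalent (44.8%) and 11 were H3K4me3-only (37.9%, below the base), among them Nodal, Gdf3, Bmp4 and Bmp7. Bmp10, Gdf2 and Gdf5 were H3K27me3-only, and Bmp5 and Bmp15 carried neither mark. Of 22 FGF ligands 11 were bivalent. Fgf4, the main autocrine FGF of embryonic stem cells, was H3K4me3-only with a peak of 6093 bp ranked 278th. Fgf5, a marker of the exit from the naive state, was bivalent with an H3K4me3 peak of 1861 bp ranked 12093rd. Fgf1, Fgf6 and Fgf21 were H3K27me3-only.

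Pluripotency genes were compared with the label. All 8 core genes, Pou5f1, Sox2, Sall4, Lin28a, Dppa4, Dppa5a, Utf1 and Tdgf1, were H3K4me3-only, as were 47.6% of protein-coding genes. The H3K4me3 peak at Pou5f1, which encodes OCT4, spanned 10144 bp and ranked 78th, and that at Sox2 spanned 6595 bp and ranked 163rd. Of 14 naive genes, 13 (Dppa3, Fgf4, Klf2, Klf4, Klf5, Nanog, Nr0b1, Nr5a2, Prdm14, Tbx3, Tcl1, Tfcp2l1 and Zfp42) were H3K4me3-only. The exception was Esrrb, a naive transcription factor gene whose H3K4me3 peak of 13547 bp ranked 38th. That peak overlapped no H3K27me3 peak. An H3K27me3 peak of 12983 bp reached another Esrrb promoter, where the marks shared 2992 bp. The median H3K4me3 peak was 5604 bp wide over the naive genes and 6752 bp over the core genes, against 2463 bp over the H3K4me3-only protein-coding genes, with 1 peak per gene in each case. Among 13 formative and primed genes, Fgf5, Otx2, Pou3f1, Sox3 and T were bivalent, and Dnmt3a, Dnmt3b, Foxd3, Lef1, Nodal and Zic2 were H3K4me3-only. Promoter marks do not measure transcripts, so these classes give no expression level.

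Genes of the machinery itself were almost all H3K4me3-only, a class that held 47.6% of protein-coding genes. Of 12 PRC2 genes (Ezh1, Ezh2, Eed, Suz12, Rbbp4, Rbbp7, Jarid2, Mtf2, Phf1, Phf19, Aebp2 and Epop), 11 were H3K4me3-only, and Phf19, a Polycomb-like accessory subunit, was bivalent under an H3K27me3 peak of 7644 bp. The H3K27 demethylase genes Kdm6a and Kdm6b and all 11 genes of H3K4 methyltransferase complexes (Kmt2a, Kmt2b, Kmt2c, Kmt2d, Setd1a, Setd1b, Ash2l, Rbbp5, Wdr5, Dpy30 and Cxxc1) were H3K4me3-only. Of 8 cell cycle inhibitor genes, Cdkn1a, Cdkn1b, Cdkn2a, Cdkn2b, Cdkn2c, Cdkn2d and Cdkn3 were H3K4me3-only, and the imprinted Cdkn1c was bivalent under an H3K27me3 peak of 55306 bp. Housekeeping lists were alike, with 81 of 82 cytosolic ribosomal protein genes H3K4me3-only and Rpl3l, the striated muscle paralogue, unmarked. The same class held 77 of 84 respiratory chain genes, 62 of 66 replication-dependent histone genes, 35 of 39 proteasome genes and 14 of 16 glycolysis genes, shares of 87.5% to 93.9% against 47.6%. Among the members outside it, Cox4i2, Cox6a2 and Cox8c (respiratory chain) were H3K27me3-only, as were the testis histones Hist1h2aa and Hist1h2ba, which shared 1 peak, and the thymus proteasome subunit Psmb11. Psmb8, an immunoproteasome subunit, was H3K27me3-only and its neighbour Psmb9 was bivalent, both under a peak of 24645 bp. Among glycolytic genes Hk1 was bivalent, with the marks sharing no base, and Aldoc carried neither mark.

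The H3K27me3-only class held other kinds of genes. Of 110 keratin and keratin-associated genes, 59 were H3K27me3-only (53.6%, against 8.32% of protein-coding genes) and 47 carried neither mark. Of the 53 keratins, the filament proteins of epithelia, 46 were H3K27me3-only, and the widest of their peaks included those of 30299 bp at Krt4 and Krt79, 29918 bp at Krt26 and Krt27 and 22162 bp at Krt32, Krt35 and Krt36, whereas 44 of the 57 keratin-associated genes, which encode matrix proteins of hair, carried neither mark. Krt8 and Krt10 were H3K4me3-only, and Krt1 and Krt19 were bivalent. Of 12 muscle genes, 7 were H3K27me3-only (Actn2, Ckm, Myh1, Myh2, Myh7, Tnnt3 and Ttn), Acta1 and Pax7 were bivalent, Mylpf was H3K4me3-only, and Myh3 and Myh4 carried neither mark. Among 10 macrophage genes, Csf1r, Lyz2 and Spi1 were H3K27me3-only, Cd14 was bivalent, Cd68 was H3K4me3-only, and Adgre1, Cx3cr1, Itgam, Mrc1 and Ptprc carried neither mark. Among 10 fibroblast genes, Col1a1 and Thy1 were bivalent, Col1a2 and Postn were H3K27me3-only, Fbln1 was H3K4me3-only, and Col3a1, Dcn, Fap, Lum and Pdgfrb carried neither mark. Of 37 chemokine genes 13 were H3K27me3-only, 16 carried neither mark, and Cx3cl1, Cxcl12 and Cxcl14 were bivalent.

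Germline genes often had a CpG island without H3K4me3. These genes are expressed in germ cells, and many are silenced elsewhere by DNA methylation of CpG-rich promoters. Of 24, 22 had a CpG island at a promoter, yet 13 carried neither mark, among them Dazl, Ddx4, Dmc1, Mael and Sycp3, and 9 were H3K27me3-only (Meioc, Piwil1, Piwil4, Slc25a31, Sycp1, Sycp2, Taf7l, Tdrd1 and Tex101). Stag3 and Rpl10l were H3K4me3-only, and none was bivalent. Olfactory receptor genes (1050 of 1093) and vomeronasal receptor genes (324 of 327) mostly carried neither mark, against 29.9% of protein-coding genes. For the germline list the base shares of protein-coding genes were 8.32% H3K27me3-only and 47.6% H3K4me3-only, and its own were 37.5% and 8.33%.

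Genes of neuronal signalling were often bivalent. The class held 59 of 92 potassium channel genes (64.1%, interval 53.9% to 73.2%) and 21 of 43 GABA and glutamate receptor genes (48.8%), against 14.2% of protein-coding genes. A further 18 potassium channel genes, such as Kcna4 and Kcna5, and 10 receptor genes, such as Gria1 and Grik1, were H3K27me3-only, which was 19.6% and 23.3% of these lists against 8.32%. Of 22 ephrin and Eph receptor genes, 9 were bivalent and 9 were H3K4me3-only (40.9% each, beside 14.2% and 47.6% of protein-coding genes). Epha8 had a bivalent promoter under an H3K27me3 peak of 55274 bp. The clustered protocadherins, adhesion molecules of neurons with alternative promoters, had narrower peaks. Of 57 entries 22 were bivalent and 24 were H3K27me3-only, with a median H3K27me3 width of 3074.5 bp in 43 separate peaks, against medians per gene of 5872 bp (HoxC), 8913 bp (HoxD), 16028.5 bp (HoxA) and 47836 bp (HoxB, where 6 genes share 1 of 4 peaks). Of 36 imprinted genes, whose parental alleles differ, 15 were bivalent (41.7%, against 14.2% of protein-coding genes) and 17 were H3K4me3-only (47.2%, near the 47.6% of protein-coding genes). Dlk1, Grb10, Igf2, Kcnq1 and Cdkn1c were bivalent, H19 and Zim1 were H3K27me3-only, and Meg3, Peg3, Snrpn and Kcnq1ot1 were H3K4me3-only.

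CpG content differed between the classes. A CpG island overlapped a promoter of 92.4% of bivalent (interval 91.4% to 93.3%) and 90.2% of H3K4me3-only protein-coding genes, of 25.3% of H3K27me3-only genes and of 7.92% of genes with neither mark, against 60.5% of all protein-coding genes. Among genes with an island, 21.7% were bivalent and 3.49% were H3K27me3-only. Among genes without one, 2.72% were bivalent and 15.7% were H3K27me3-only. The ratio of observed to expected CpG within 500 bp of the TSS had a median of 0.65 in bivalent, 0.74 in H3K4me3-only, 0.28 in H3K27me3-only and 0.17 in unmarked genes, and GC content had medians of 60.3%, 58.7%, 52.4% and 44.6%. Bivalent genes were longer, with a median of 34.1 kb against 22.6 kb, 14.6 kb and 8.56 kb for H3K4me3-only, H3K27me3-only and unmarked genes. The number of TSS differs too and enters the rule: protein-coding genes with 1 TSS were bivalent in 11.7% of cases and those with 7 or more in 16.7%.

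**Figure D2:**
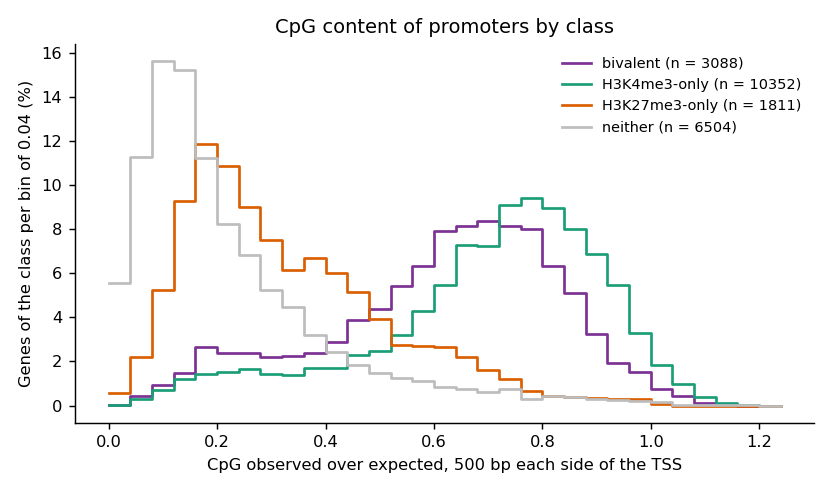
Distribution of the observed over expected CpG ratio within 500 bp of the 5′ TSS (x axis) in each promoter class of protein-coding genes (y axis, percent of the class per bin). Bivalent and H3K4me3-only genes have medians of 0.65 and 0.74, and H3K27me3-only and unmarked genes have medians of 0.28 and 0.17.

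Short motifs were counted on both strands of the 300 bases from 250 before to 50 after the RefSeq TSS, for the 16416 protein-coding genes that matched by symbol. The ETS core CCGGAAG, common at housekeeping promoters, was found in 21.1% of H3K4me3-only promoters (interval 20.3% to 22.0%) and in 5.29% of bivalent promoters (interval 4.44% to 6.29%), against 12.4% of all. The NRF1 core GCATGCG was found in 7.32% and 3.09%, against 4.67% of all. The GC box core GGGCGG, by contrast, was found at closer shares, 67.7% and 63.3%, against 29.5% of H3K27me3-only and 48.5% of all promoters. TATAAA, the TATA box, was found in 6.04% of H3K4me3-only, 7.67% of bivalent, 14.9% of H3K27me3-only and 26.5% of unmarked promoters. The median number of CpG in these 300 bases was 20 in bivalent, 22 in H3K4me3-only, 6 in H3K27me3-only and 2 in unmarked promoters. A match is a description of the letters and not of binding. The motifs overlap with GC content in what they count.

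Classes of non-coding genes differed. Of 788 genes annotated as processed transcripts, 12.8% were bivalent (interval 10.7% to 15.3%) and 39.97% were H3K4me3-only. Of 5305 lincRNA genes, 15.8% were H3K27me3-only, 12.3% were H3K4me3-only and 3.52% were bivalent, against 8.91%, 25.6% and 7.54% of all genes. Of 2958 antisense genes, which often share a promoter with a coding gene, 9.40% were bivalent (interval 8.40% to 10.5%). A further 25.5% were H3K4me3-only, near that share of all genes, and 13.4% were H3K27me3-only (interval 12.2% to 14.6%), above the 8.91% of all genes. Of 9849 processed pseudogenes 88.4% carried neither mark and 0.59% were bivalent.

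In the full list, H3K27me3 peaks at promoters of bivalent genes were wider and higher than other H3K27me3 peaks. Such a peak need not meet H3K4me3, since the marks of a gene can lie apart. An H3K4me3 peak was touched by 2861 of the 8484 promoter H3K27me3 peaks, fewer than the 4286 at promoters of bivalent genes. Those 4286 had a median width of 5715.5 bp (interval of the median 5537 to 5919 bp), against 4490.5 bp (4383 to 4613 bp) for the 4198 peaks that reached H3K27me3-only promoters alone and 3919 bp (3884 to 3952 bp) for the 16129 peaks outside promoters. Their median maximum signal, the highest coverage inside the peak, was 97 against 62 and 53. Signal is unscaled coverage and was compared only within a list. The ratio of median widths between bivalent and H3K27me3-only peaks was 1.27 (interval 1.22 to 1.33). Once the H3K27me3 list was cut to its 3122 peaks of largest total signal, which together cover no more bases than the H3K4me3 list, that ratio was 0.93 (interval 0.88 to 0.97) and thus turned round. Among peaks of 32000 bp or wider, 83.4% of 169 reached a promoter and 58.6% touched an H3K4me3 peak, compared with 27.2% and 7.89% of the 10064 peaks of 2000 to 4000 bp. A wider peak has more sequence with which to meet a promoter or an H3K4me3 peak.

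H3K4me3 peaks differed less. Of the 14354 promoter H3K4me3 peaks 2984 touched H3K27me3, fewer than the 3790 at promoters of bivalent genes. Those 3790 had a median width of 2532 bp and the 10564 at H3K4me3-only promoters 2334 bp, a ratio of 1.08 (interval 1.06 to 1.11). In maximum signal the order was the reverse, with medians of 114 (interval 112 to 117) and 138 (interval 136 to 139). The 5008 H3K4me3 peaks outside promoters had a median width of 1934 bp and a median maximum of 85.

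**Figure D3:**
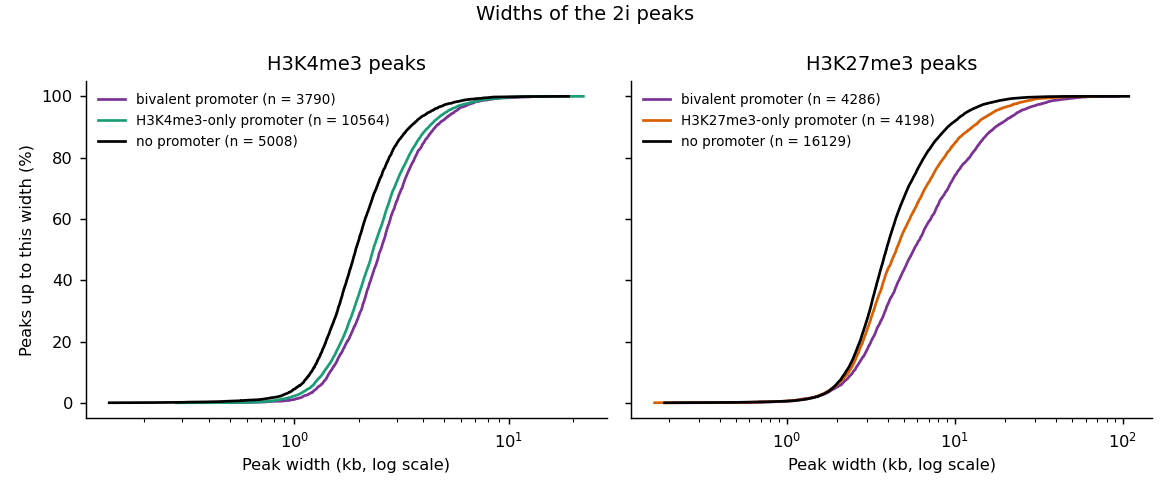
Cumulative distributions of peak width in kb on a log scale (x axis) for H3K4me3 (left) and H3K27me3 (right) peaks, split by the class of the genes whose promoters they reach. Median widths are 2532, 2334 and 1934 bp for H3K4me3 and 5715.5, 4490.5 and 3919 bp for H3K27me3 at promoters of bivalent genes, at promoters of genes with the single mark and outside promoters.

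The bivalent genes under the H3K27me3 peaks of largest total signal were Duxf3, Sfi1, Cacna1g, Rbfox3, Kif26a, Sp110, Lmx1b and Wnt3. Duxf3 belongs to a tandem array of Dux copies, where short reads are hard to place, and its peak had a maximum of 1637. On the chromosomes used, the highest maximum was 34317 for H3K27me3 and 54949 for H3K4me3, against medians of 58 and 118. No such peak was removed, and read placement was not tested for any gene named here, including Sfi1, which was among the leading genes of both marks. Rbfox3, which encodes the neuronal nuclear protein NeuN, had a peak of 93851 bp at chr11:118834520-118928370, and Lmx1b, a limb and midbrain regulator, had one of 70015 bp at chr2:33580897-33650911. The H3K27me3-only genes by the same rule were Spata20, Otop3, Pear1, Btbd17, Qrfp, Hoxb8, Pabpn1l and Crocc2. Spata20 shared its peak of 61041 bp with bivalent Cacna1g, a calcium channel gene, and 7.51% of the 1811 H3K27me3-only protein-coding genes (interval 6.38% to 8.82%) lay under a peak that also reached a promoter of a bivalent gene. By H3K4me3 signal the leading bivalent genes were H2-DMa, Esrrb, Hic1, Gse1, Sfi1, Dmrta2, Rxrb and Sema5b, and the leading H3K4me3-only genes were Mllt6, Patz1, Brd2, Irf2bpl, Vdac1, Tlcd1, Mnt and Zbtb7a. The widest H3K4me3 peak of the list lay at Mllt6, chr11:97653027-97675316, and spanned 22290 bp. H2-DMa shared its H3K4me3 peak of 10128 bp with its neighbour Brd2, a bromodomain gene, and its own marks shared no base.

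Around the 5′ end of genes the marks had different shapes. At bivalent protein-coding genes an H3K4me3 peak covered the TSS itself in 80.6% of cases and the position 5000 bp downstream in 8.42%. H3K27me3 covered the TSS in 71.3%, the position 5000 bp downstream in 43.0% and 5000 bp upstream in 30.4%. At H3K27me3-only genes these shares were 67.3%, 40.9% and 23.8%. H3K27me3 covered a median of 32.4% of the gene body at bivalent genes and 47.1% at H3K27me3-only genes. These genes differ in length, with medians of 34.1 kb and 14.6 kb. In bases the order was the other way, with a median H3K27me3 peak width per gene of 6858.5 bp and 5465 bp. The zero values within 2000 bp for the classes that lack a mark follow from the rule.

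**Figure D4:**
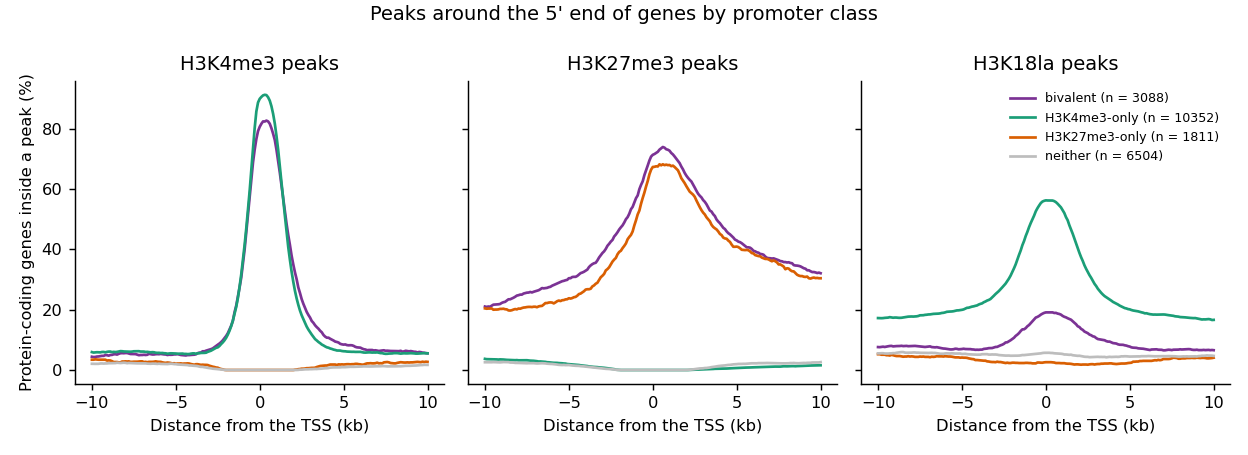
Share of protein-coding genes inside a peak (y axis) by distance from the 5′ TSS in kb, downstream to the right (x axis), for H3K4me3, H3K27me3 and H3K18la peaks of mESC-2i, with a line for each class. At bivalent genes H3K4me3 covers 80.6% of TSS and 8.42% of positions 5000 bp downstream, H3K27me3 covers 71.3% and 43.0%, and H3K18la covers the TSS of 56.2% of H3K4me3-only and 19.1% of bivalent genes.

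H3K18la, lactylation of lysine 18 of histone H3, is a measure the rule did not use. In mESC-2i it was called at a promoter of 63.6% of H3K4me3-only genes, 30.3% of bivalent genes and 6.24% of H3K27me3-only genes, against 37.8% of protein-coding genes. The gap between the first 2 classes was present with a CpG island (63.5% and 30.3%) and without (65.4% and 29.9%). All 8 core and all 14 naive pluripotency genes carried it, Esrrb included, as did 79 of 82 ribosomal protein genes. Developmental lists ranged widely. It was called at 11 of 18 Wnt receptor and inhibitor genes, 14 of 29 TGF-beta superfamily ligand genes and 7 of 15 endoderm regulators, but at 3 of 19 Wnt ligand genes and 0 of 20 mesoderm regulators. Of 39 Hox genes 13 carried it, with 7 of 9 in HoxC and 0 of 9 in HoxD.

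The same genes were looked up in the other peak lists. The lists differ in size and in cell preparation, and no difference between cell types was tested. In serum-grown stem cells (mESC-ser), H3K27me3 was called at 92.6% of the genes bivalent in 2i, against 27.04% of protein-coding genes, and H3K4me3 at 64.2% of them, against 48.8%. Thus 58.4% of the genes bivalent in 2i were bivalent in serum, 34.2% were H3K27me3-only there, 5.80% were H3K4me3-only and 1.59% carried neither mark. Of genes H3K27me3-only in 2i, 62.6% kept that class in serum and 1.38% were bivalent. Over all protein-coding genes in serum 14.2% were H3K27me3-only and 35.98% were H3K4me3-only. In gastrocnemius muscle (GAS), 44.8% of the genes bivalent in 2i were bivalent and 34.9% were H3K4me3-only, and in post-ischemia macrophages (PIM) 44.0% were bivalent, 17.7% were H3K4me3-only and 33.4% were H3K27me3-only. Of H3K4me3-only genes, 87.2% were H3K4me3-only in GAS and 77.98% in PIM, beside 52.1% and 44.9% of all protein-coding genes there. Of all protein-coding genes 11.9% were H3K27me3-only in PIM. Stem cells in serum had 12.8% bivalent protein-coding genes, GAS 12.1% and PIM 14.5%, beside 14.2% in 2i.

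The Hox genes differed between the stem cell lists, where 31 of 39 genes were bivalent in 2i and 2 were in serum, with the other 37 H3K27me3-only. None of the 31 was among those 2. The serum H3K4me3 list held 11002 peaks against 19362. With the 2i H3K4me3 list cut to its 11002 peaks of largest total signal, 22 of the 39 Hox genes were bivalent and 12 were H3K27me3-only. Over all genes the bivalent share fell from 7.54% to 5.10% in that reduction, as the base for these counts. Other lists lost bivalent members to different degrees. Of the bivalent members, 33 of 38 dispersed homeobox genes, 16 of 18 Wnt ligand genes and 19 of 21 neural regulators were still bivalent, as were 39 of 59 potassium channel genes, 14 of 21 GABA and glutamate receptor genes, 7 of 11 FGF ligand genes and 3 of 22 clustered protocadherins. Among genes bivalent in 2i, 13 of 18 Wnt ligand genes and 17 of 21 neural regulators were bivalent in serum too. In the naive list 5 of 14 genes were bivalent in serum, compared with Esrrb alone in 2i. In GAS 22 Hox genes were bivalent and 8 were H3K4me3-only, and in PIM 20 were bivalent.

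Of the H3K27me3 peaks in 2i, 16129 lay outside promoters, which was 65.5% of the list (interval 64.9% to 66.1%), 56.3% of its bases and 48.0% of its total signal. Among the 3122 peaks of largest total signal the share outside promoters was 34.9%, so it depends on how many peaks are kept. Their distance to the nearest TSS had a median of 16364 bp, with quartiles of 7443 and 35192 bp, and 4.25% lay 100 kb or farther away. An exon was overlapped by 22.5% of them, 30.9% touched introns alone and 46.6% were intergenic. By bases, 49.1% were intronic and 3.97% exonic, compared with 40.1% and 2.87% of the genome outside promoters. A CpG island was overlapped by 3.45% of these peaks, compared with 37.6% of the peaks at promoters. Their median GC content was 47.4% and 16.99% of a median peak was masked as repeat, beside 41.8% and 34.3% for the genome.

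**Figure D5:**
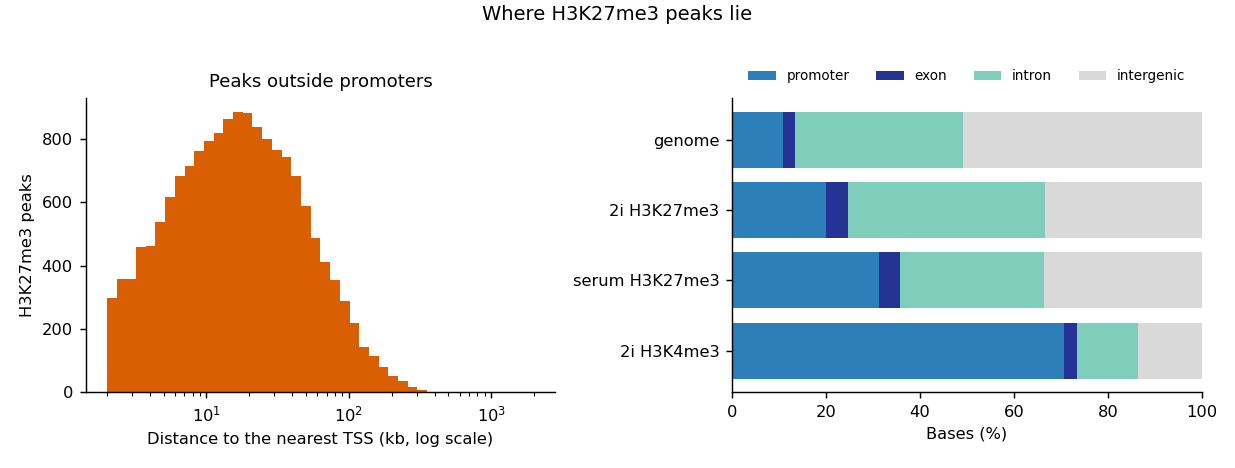
Left, number of H3K27me3 peaks outside promoters by distance to the nearest TSS in kb on a log scale, with a median of 16364 bp. Right, share of bases in promoters, exons, introns and intergenic sequence for the genome, the 2i and serum H3K27me3 lists and the 2i H3K4me3 list, in which promoters hold 10.9%, 20.1%, 31.2% and 70.6%.

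The nearest TSS belonged to a bivalent gene for 27.5% of these peaks and to an H3K27me3-only gene for 27.4%, whereas these classes made up 7.54% and 8.91% of all genes. It belonged to an H3K4me3-only gene for 10.7%, compared with 25.6% of all genes, and to a gene with neither mark for 34.3%, the largest of the 4 shares, compared with 57.9%. Of the peaks, 41.0% touched the body of a gene with promoter H3K27me3, beside 16.4% of all genes that carried it. An H3K27me3 peak at a promoter lay within 10 kb of 25.7% of them, a value given without a base. Shares of genes take no account of length. Over all genes the median length was 22.0 kb for bivalent, 15.5 kb for H3K4me3-only, 4.24 kb for H3K27me3-only and 1.19 kb for unmarked genes.

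Other marks were sparse at these peaks. An H3K4me3 peak of the same cells overlapped 2.69% of them and an H3K18la peak 1.90%, beside 33.7% and 8.52% of the peaks at promoters. The 557 peaks with a CpG island differed, since 43.6% of them touched H3K4me3 (interval 39.6% to 47.8%), and their median maximum signal was 96 compared with 52 for the others. H3K27me3 of serum-grown cells overlapped 33.6% of the peaks outside promoters and 65.5% of those at promoters. Among peaks outside promoters the shares were 84.2% with a CpG island and 31.7% without. The H3K27me3 lists of the differentiated cells overlapped between 16.8% (myoblasts) and 38.8% (GAS) of them. H3K18la of GAS (36813 peaks) overlapped 16.9% and that of myotubes (33991 peaks) 16.6%, beside 25.4% and 21.5% of the peaks at promoters. The overlap that lists of these sizes would give by chance was not tested, so these shares do not show an excess.

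The widest H3K27me3 peak outside promoters, chr8:120891271-120999690, spanned 108420 bp in an intron of the gene model Gm20388, 3237 bp from the TSS of the lincRNA Gm28324, and a second peak of 42538 bp, chr8:121283241-121325778, lay in the same gene model. The next, chr11:118641548-118748255, spanned 106708 bp of the neuronal gene Rbfox3, so that this gene held a peak of 93851 bp at its promoter and a further one in its body. A peak of 59352 bp at chr11:112948245-113007596 was intergenic, 123066 bp from the nearest TSS, and serum H3K27me3 covered 87.8% of it. Peaks of 44758 bp at chr7:139112642-139157399 in Stk32c, 43524 bp at chr11:113919302-113962825 in Sdk2 and 42902 bp at chr10:60563941-60606842 in Cdh23 overlapped exons. None of these 7 peaks overlapped a CpG island or an H3K4me3 peak. Serum H3K27me3 covered 8.54% of the peak in Cdh23, the lowest share of the 7.

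Chromosomes differed in both marks. Across autosomes the bivalent share of protein-coding genes ran from 9.14% on chromosome 7 to 20.5% on chromosome 12, and H3K27me3 peaks outside promoters from 4.18 per Mb on chromosome 16 to 11.1 per Mb on chromosome 11. On the X chromosome 4.32% of 948 genes were bivalent (interval 3.20% to 5.81%), compared with 14.6% on autosomes, and 4.85% were H3K27me3-only, compared with 8.48%. The X held 1.28 H3K27me3 peaks per Mb, compared with 9.91 on autosomes, and 3.25 H3K4me3 peaks compared with 7.64. Aligned reads per chromosome are not in the lists, so the part of copy number and of mappability in these differences was not tested.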

How the data were processed

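H3K4me3 and H3K27me3 were profiled by CUT&Tag in mESC-2i with the antibodies ab8580 and C36B11, 2 biological replicates per mark. The authors trimmed reads (Trim Galore 0.6.6), aligned them to mm10 (Bowtie2 2.4.4), combined replicate coverage (bedtools 2.30) and called stringent peaks with SEACR 1.3, keeping the top 1% of regions, versions being from the submitters' processing notes and the study's methods. SEACR often joins nearby peaks. Duplicate handling was not given in the sources used here, and a blacklist filter is described only for later steps. The deposited lists hold a score per peak, the coverage summed over it (total signal here), and its maximum signal, both from unscaled fragment coverage. The lists hold no read depth, and library read totals were not used here.

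TSS came from GENCODE vM21 (139486 transcripts, 53843 genes, GRCm38, the assembly of mm10), and all peaks ended within its chromosomes. Y and mitochondrial peaks were left out. CpG islands (17060) were predicted from unmasked sequence by runs scoring 17 per CpG and -1 per other base, of at least 200 bp, 50% GC and an observed to expected ratio of 0.6. A peak counted as bivalent where it reached a promoter of any bivalent gene. Intervals are 95% Wilson for shares, binomial order statistics for medians and their square-and-add combination for ratios and differences. Stem cell lists without a medium in their name were taken as serum. Overlap code was tested on simulated data. Python 3.11.15 with numpy, pandas and numba was used.

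The 40 gene lists and the members were chosen with earlier results of these data known. Named genes are members of lists of up to 15 genes, minority classes of longer lists (up to 8 per class, with examples of other classes), the 8 genes of largest signal per class and mark, 1 per peak, and the 8 widest H3K27me3 peaks outside promoters. Examples beyond that rule were chosen after their values were seen. Alternatives were promoter width, TSS set, overlap, peak strength and the definition of bivalency, and 2 reductions of a list were added after seeing the data. Some members of these lists and 1 of the 8 widest peaks are not reported here.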

Additional observations from a re-analysis of the deposited data

Results flagged for a closer look

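Peaks outside the chromosomes used above were few. The H3K4me3 list held 19 peaks on the Y chromosome and the H3K27me3 list 3. Each list held 2 peaks on mitochondrial DNA, which carries no histones, and their highest maximum signal was 107 for H3K4me3 and 47 for H3K27me3. These values were noted because they lie in data that no comparison used and are above the limit that a count of 0 allows. Mitochondrial peaks made up 0.0274% of the total H3K4me3 signal and 0.00259% of the total H3K27me3 signal. Groups of 2 samples with combined replicates left no sample values in which to look for a sample far from the others.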

How the results depend on the processing

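Values are given in the order bivalent, H3K4me3-only, H3K27me3-only and neither as shares of genes, then the share of H3K27me3 peaks outside promoters, the ratios of median H3K4me3 and H3K27me3 peak width (bivalent over single mark) and the difference in CpG island share between bivalent and H3K27me3-only genes in percentage points. As reported they were 7.54%, 25.6%, 8.91%, 57.9%, 65.5%, 1.08, 1.273 and 74.4. The values listed lay outside the counting interval of the value over all genes. Promoters of 1000 bp on each side gave 6.94%, 24.9%, 8.08%, 60.0% and 69.3% for the shares. TSS of protein-coding transcripts only, over protein-coding genes (14.2%, 47.6%, 8.32% and 29.9% with all TSS), gave 13.2%, 47.8%, 7.99%, 31.0% and 79.5%, an H3K27me3 width ratio of 1.22 and a CpG island difference of 67.9, and of these shares 47.8% and 7.99% lay inside the intervals over protein-coding genes. A single TSS per gene gave 6.37% bivalent, 8.64% H3K27me3-only, 59.6% neither and 73.0% outside promoters. At least 400 bp covered gave 8.64% H3K27me3-only, 58.7% neither and 66.9% outside promoters. Bivalency by shared bases gave 6.62% and by the same TSS 7.02%. With the larger 50% of peaks by total signal the values were 3.96%, 18.2%, 7.79%, 70.1%, 55.4%, 1.15, 1.16 and 56.0. The next alternatives were chosen after seeing the data. With the H3K27me3 list reduced to the called bases of the H3K4me3 list they were 3.27%, 29.9%, 1.95%, 64.9%, 34.9%, 1.20, 0.930 and 68.0, so that the H3K27me3 width ratio reversed. With the H3K4me3 list reduced to the number of serum peaks they were 5.10%, 19.2%, 11.3% and 64.3% for the shares, 1.127 and 1.35 for the width ratios and 64.2 for the CpG island difference. The cause was not tested. Against the values over all genes, 43 moved, 1 reversed and 14 stayed within their interval. Class sizes thus depend on how many peaks are kept, and the lists hold no read depth. No paired analysis was possible because each list combines its replicates before peak calling, and for the same reason no replicate could be left out.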

Other observations

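Peak density on chromosomes 8 and 11 varied among the lists. On chromosome 8 the number of H3K27me3 peaks per Mb was 1.53 times the autosomal value in mESC-2i and 1.49 times in mESC-ser, compared with 0.92 in bone marrow-derived macrophages, 0.95 in PIM, 1.07 in myotubes, 1.08 in myoblasts and 1.132 in GAS. On chromosome 11, H3K4me3 peaks were 1.77 times as dense in mESC-2i and 2.11 times in mESC-ser, compared with 1.43 in GAS and 1.35 in PIM, and H3K27me3 peaks were 1.72 times as dense in mESC-2i, 2.07 in mESC-ser and 1.59 in bone marrow-derived macrophages, with the other lists of that mark between 1.24 and 1.40. The median maximum signal of mESC-2i H3K4me3 peaks was 1.11 times that of the list on chromosome 8, 1.169 times on chromosome 11 and 0.746 times on the X chromosome, beside 1.138, 1.249 and 0.696 in mESC-ser, 0.963, 1.167 and 0.778 in GAS and 1.047, 1.064 and 1.181 in PIM. The chromosome copy number of these cultures was not tested.

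The X chromosome held fewer H3K27me3 peaks per Mb than autosomes in mESC-2i, at 0.129 times the autosomal density. The value was 0.147 in bone marrow-derived macrophages, 0.226 in PIM, 0.317 in mESC-ser, 0.360 in myoblasts, 1.12 in GAS and 1.20 in myotubes. The paper took its muscle and macrophage samples from female mice, and its text does not give the sex of the stem cells. The part of sex and of X copy number in these values was not tested. These values are given without a test, since each list combines its replicates.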
